A study of Rattus norvegicus with 12 samples.

Results

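Early response and signal feedback genes were followed through their 17 cDNA clones on 12 nylon arrays of RNA from rat hippocampal cultures. The genes were the immediate early response genes IER2, IER3 and IER5, the transcription factor KLF6, the matricellular protein CCN1, the MAP kinase phosphatases DUSP2 and DUSP6, the stress sensors GADD45A and GADD45G, and the activin subunit INHBA. Every clone that the platform annotation gave 1 of these 10 symbols was taken, whatever its values, out of 8496 clones for 6284 genes with a single symbol among 9600 spots. IER3, KLF6 and GADD45G had 2 clones each, CCN1 and DUSP6 had 3, and the others had 1. Clones of a gene were numbered from the brightest spot down.

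Hippocampal cells of embryonic Sprague-Dawley rats had grown atop a glial feeder layer for 12 days. All 12 groups, which had 1 array each, shared a 3 h Block, a cocktail that silences the network. It held 50 µM APV against NMDA receptors, 40 µM CNQX against AMPA and kainate receptors and 100 nM tetrodotoxin against sodium channels. At 5, 30 and 60 min there was a BiC/4AP + ActD, a Block + ActD, a BiC/4AP and a Block array. BiC/4AP is 50 µM bicuculline, which blocks GABA-A receptors, with 500 µM 4-aminopyridine, a potassium channel blocker, and together they make the network fire. ActD is 25 µM actinomycin D, which stops transcription. According to the methods of the study, cultures received ActD or a DMSO control already before the stimulus, so contact with ActD was longer than the times given. The blockers were washed out when BiC/4AP was added. The labels give the times as the length of treatment, whereas the methods of the study describe a 5 min stimulus in every case with harvest at the later times, and both readings of a time are possible. The labels describe a sample as 3 pooled coverslips and the methods describe RNA combined from separate experiments. All samples carry the same replicate number, so the spread that any test below uses is the disagreement between times and treatments, and not between repeated cultures.

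Synaptic activity reaches the nucleus mainly through calcium and the MAP kinase cascade, which activate the transcription factors CREB and SRF that are already bound at immediate early genes. IER2, IER5 and KLF6 are transcribed within minutes in many cell types without new protein synthesis. DUSP2 and DUSP6 belong to the feedback arm, since the phosphatases they encode remove the phosphates that activate MAP kinases. Many of these mRNAs are short-lived, so their level is known to depend on ongoing transcription, which is why the contrast with ActD bears on them.

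Promoter letters are shown for the members in which a motif of these factors, or a TATA box as used by many rapidly induced genes, was found near the start of the gene. RefSeq windows of 250 bases before to 50 bases after the start (GRCr8, rat) matched 9 of the 10 members by symbol, that is, all except Ier3. The CRE TGACGTCA, which CREB binds, occurred in 1 member, Ier2, and in 1.83% of all 33469 promoters. The CArG box, which SRF binds, occurred in 1 member, Klf6, and in 1.64% of all promoters. TATAAA, searched on both strands, occurred in 4 members, Ccn1, Gadd45g, Ier5 and Inhba, and in 14.2% of all promoters. The AP-1 site (TGACTCA, or TGAGTCA on the other strand) occurred in 0 of the 9 and in 4.63% of all promoters. The lines below show the CRE, the CArG box, and the TATA boxes of the pair of TATA box genes whose clones had the largest activity difference in a single pair. That choice rests on single pairs of arrays, and a link between a TATA box and the activity difference was not tested. The motif is in capitals and each run is 5′ to 3′ on the gene's strand.
Ier2, CRE at -66, chr19:40399296-40399325, plus strand: tggcgtttcagTGACGTCActcttactcta
Klf6, CArG box at -201, chr17:69458660-69458689, minus strand: aataggaaggCCTTTAATGGagaggctcgg
Ccn1, TATA box at -34, chr2:237225706-237225735, minus strand: cgaggcaggcatTATAAAgggcgggctccc
Gadd45g, TATA box at -48, chr17:13530382-13530411, minus strand: gcggagccggtcTATAAAaggactctccct
Positions count from the start of the gene, with negative values before it. A match is a description of letters in the rat genome and not of a bound site.

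The values are normalised intensities in linear units, that is, spot intensities after each array was centred and scaled on the log2 scale, and a difference is given as a log2 difference of them. Raw array medians were 24.53 to 69.755 intensity units, the 60 min arrays had the highest numbers and the 5 min arrays the lowest medians, and arrays correlated at 0.902 to 0.961 over all spots. The 30 min BiC/4AP array stood furthest from the others, with a median correlation of 0.913. At 30 min the BiC/4AP arrays had numbers 87 and 88 and the Block arrays 85 and 86, and at 60 min the BiC/4AP arrays had 91 and 92 and the Block arrays 89 and 90, so in the pairs of both times activity and array number cannot be told apart. Of the neuron markers 7 of 12 genes had a clone, with a median brightness percentile of 62.8, and STMN2 (88.9), ENO2 (81.4) and GAP43 (76.5) were bright. MAPT (70.9) and SNAP25 (54.7) lay between, and the clones of TUBB3 (35.25 and 29.1) and NEFM (20.6) were low. Of 9 astrocyte markers 4 had a clone, with a median brightness percentile of 38.5. GFAP, the defining one, lay at the 80.8th percentile, and S100B (46.5), CLU (30.5) and VIM (14.0) lay lower. Summed over its clones, the astrocyte list had 181 to 227 units with BiC/4AP and 147 to 217 with Block, and the neuron list had 346 to 640 with BiC/4AP and 485 to 616 with Block, ActD arrays included. In such cultures fewer cells of a type and less RNA per cell cannot be told apart. In the 30 min pair without ActD 0 of the 8 neuron marker clones were above 0, with a median of -0.94, whereas in the other 5 pairs their medians ran from -0.18 to 0.41. Astrocyte markers were at a median of 0.17 in that pair, with 4 clones that ran from -0.32 to 1.06. There the medians were -0.61 for the 3 clones of microglia markers and -0.08 for the 3 of fibroblast and vessel markers. Oligodendrocyte markers were at 0.11 and all clones of 1 symbol at -0.002. The part of this shift in the values of the members at 30 min was not tested. Brightness of a spot depends on the clone, so no level was set against that of another gene. CCN1 clone 3 and GADD45G clone 2 lay in the lowest 25% of spot brightness and are called dim. CCN1 clone 3 was brighter than 95% of the blank spots on 4 of 12 arrays, and GADD45G clone 2 on 10 of 12.

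None of the 10 genes passed the test for a difference between BiC/4AP and Block arrays, with or without ActD. With ActD 9 of 17 clones were above 0, with a median of 0.00396, and they ran from -0.27 (DUSP6 clone 3) to 0.27 (the dim GADD45G clone 2). Without ActD 9 of 17 were again above 0, from -0.37 (KLF6 clone 1) to 0.57 (the dim CCN1 clone 3), with a median of 0.01. Over all clones of 1 symbol 47.6% were above 0 with and 49.2% without ActD. The test was limma over all 9600 spots with Benjamini-Hochberg adjustment, with 6 residual degrees of freedom. It called 0 spots, 0%, in either comparison, and at an unadjusted p under 0.05 it held 2.01% of spots with ActD and 5.5% without, among them 0 of the 17 clones. The smallest adjusted p of a member was 0.79. Leaving aside the dim clones, the 95% intervals without ActD reached at most 1.83-fold upward (CCN1 clone 2) and 0.528-fold downward (KLF6 clone 1), so larger mean differences over the 3 times lay outside them.

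**Figure D1:**
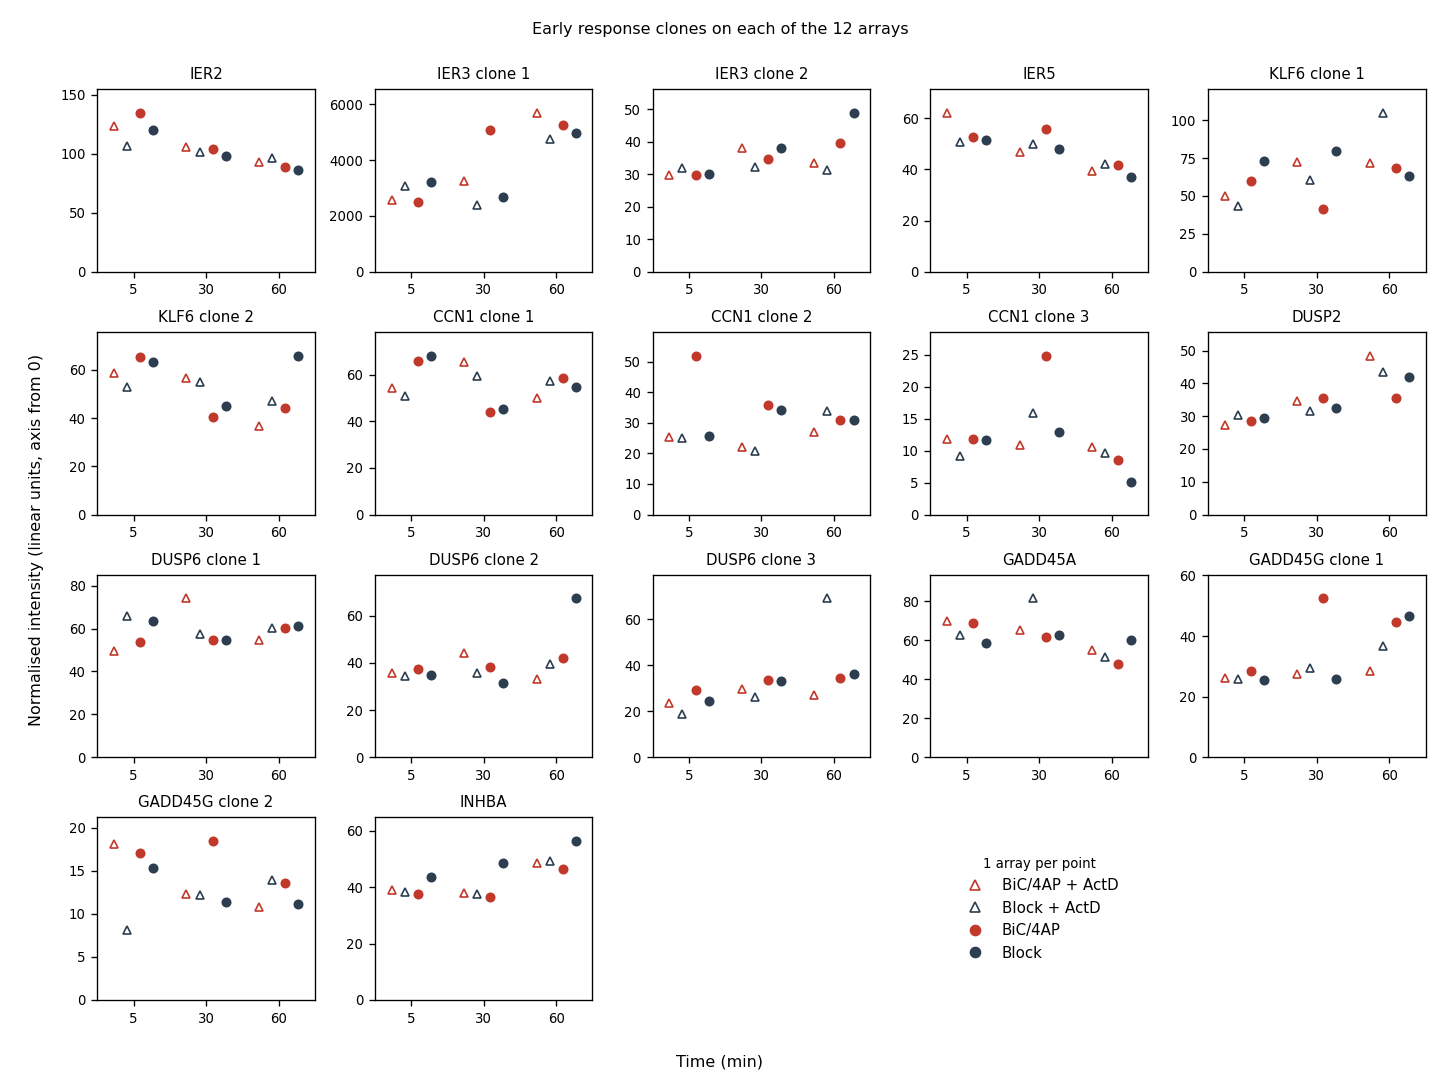
Normalised intensity (linear units, axis from 0) of the 17 clones against time (min), 1 array per point, with BiC/4AP in red, Block in dark blue, ActD arrays as open triangles and the others as filled circles. The BiC/4AP array of 30 min stands above the other arrays of that time for IER3 clone 1 (5064) and GADD45G clone 1 (52.4), and that of 5 min for CCN1 clone 2 (52.0).

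IER2 encodes a nuclear protein linked to transcriptional control. IER2 had 124, 106 and 92.7 units at 5, 30 and 60 min with BiC/4AP + ActD, 106, 102 and 96.1 with Block + ActD, 134, 104 and 88.3 with BiC/4AP, and 120, 97.8 and 85.9 with Block. The 5 min arrays held the highest value of each treatment and the 60 min arrays the lowest. With ActD the fitted activity difference was 0.07 ± 0.16 (SE), above 0 in 2 of 3 pairs. Without ActD the BiC/4AP array exceeded the Block array in all 3 pairs, by 0.17, 0.09 and 0.04, with a fitted difference of 0.10 ± 0.16 (95% interval 0.843- to 1.36-fold, limma adjusted p = 0.90, 3 against 3 arrays).

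IER3 encodes a short-lived protein with a role in cell survival. The spot of IER3 clone 1 had a geometric mean of 3578 raw units, at the 98.9th percentile of brightness, which was 104 times that of clone 2, whose 34.4 units lay at the 37.2nd percentile. Both bear the symbol, and which of them reports IER3 mRNA was not tested. IER3 clone 1 had 2561, 3260 and 5683 units at 5, 30 and 60 min with BiC/4AP + ActD, 3061, 2385 and 4744 with Block + ActD, 2490, 5064 and 5266 with BiC/4AP, and 3227, 2683 and 4981 with Block. The 60 min arrays lay high in all treatments, and at 30 min the BiC/4AP array alone was at their level. Its activity differences were -0.26, 0.45 and 0.26 with ActD and -0.37, 0.92 and 0.08 without, so the sign at 5 min was opposite to the later ones in both. The 60 min value without ActD was -0.08 after quantile normalization, -0.05 with normexp background correction and -0.27 without dim spots, and the 60 min value with ActD was -0.16 with the medians of print block and position removed. In those settings it shared the sign of 5 min. The 0.92 at 30 min, a 1.89-fold ratio, came to 0.30 after quantile normalization and 0.35 when dim spots were left out. Over the 3 times clone 1 was at 0.15 ± 0.25 with ActD and 0.21 ± 0.25 without. Leaving out the 30 min BiC/4AP array turned the value without ActD to -0.12. IER3 clone 2 ran from 29.6 to 48.8 units and was below 0 in all 3 pairs without ActD, by -0.02, -0.14 and -0.31.

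IER5, which is known to promote heat shock factor activity, had 62.0, 46.9 and 39.3 units at 5, 30 and 60 min with BiC/4AP + ActD, 50.7, 49.9 and 42.2 with Block + ActD, 52.7, 55.8 and 41.7 with BiC/4AP, and 51.5, 48.2 and 36.9 with Block. Like IER2 it had its lowest values on the 60 min arrays of each treatment. The activity difference was 0.03 ± 0.17 with ActD, above 0 in 1 of 3 pairs, and 0.14 ± 0.17 without (0.860- to 1.41-fold), above 0 in 3 of 3.

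Without ActD 4 of the 17 clones lay above 0 in all 3 pairs, namely IER2, IER5, and the dim clones of CCN1 and GADD45G, where 14.4% of all clones of 1 symbol did. IER3 clone 2 and INHBA lay below 0 in all 3, and 14.8% of all clones did. None of the 6 kept this under every normalization. With the medians of print block and position removed, IER5 was at -0.16, CCN1 clone 3 at -0.04 and GADD45G clone 2 at -0.12 at 5 min, INHBA was at 0.07 at 30 min and IER3 clone 2 at 0.06 at 60 min. With normexp IER2 was at -0.01 at both 30 and 60 min. With ActD 0 clones were above 0 in all 3 pairs and 0 were below, against 10.7% and 12.4% of all clones. No member kept 1 direction over all 6 pairs.

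KLF6, a zinc finger factor of the Krüppel-like family, was measured by clones of similar brightness (geometric means of 63.5 and 51.8 raw units). KLF6 clone 1 had 49.8, 72.3 and 71.9 units at 5, 30 and 60 min with BiC/4AP + ActD, 43.6, 60.5 and 105 with Block + ActD, 60.1, 41.4 and 68.7 with BiC/4AP, and 73.1, 79.9 and 62.9 with Block. The 30 min BiC/4AP array was the lowest of the 12 and the 60 min Block + ActD array the highest. At 30 min the difference was 0.26 with ActD and -0.95 without, the pair in which the neuron markers had a median of -0.94. KLF6 clone 2 had 58.9, 56.5 and 36.6 units with BiC/4AP + ActD, 53.0, 55.0 and 47.3 with Block + ActD, 65.4, 40.5 and 44.2 with BiC/4AP, and 63.1, 45.1 and 65.9 with Block. Its 30 min difference without ActD was -0.16, and both clones lay on the same side of 0 in 4 of 6 pairs. Over the 3 times without ActD clone 1 was at -0.37 ± 0.26 and clone 2 at -0.23 ± 0.22 (limma adjusted p = 0.79 and 0.83). The value of clone 1 was -0.12 when the 30 min BiC/4AP array was left out and -0.66 when the 60 min Block array was.

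CCN1, a secreted matrix-associated protein induced by growth factors, was represented by 3 clones. CCN1 clone 2 had 25.5, 22.2 and 27.0 units at 5, 30 and 60 min with BiC/4AP + ActD, 25.2, 20.7 and 34.0 with Block + ActD, 52.0, 35.8 and 30.9 with BiC/4AP, and 25.6, 34.1 and 30.9 with Block. The 5 min BiC/4AP array was the highest of the 12, with a difference of 1.02 from the 5 min Block array, and the other 5 pairs ran from -0.33 to 0.10. The brighter CCN1 clone 1 had a difference of -0.05 in that pair and the dim clone 3 had 0.03, so neither shared the 5 min value. Clone 1 ran from 44.3 to 68.2 units over the 12 arrays, and its activity differences ran from -0.19 to 0.14. The clones of CCN1 lay on the same side of 0 in 1 of 6 pairs. Over the 3 times without ActD clone 2 was at 0.36 ± 0.24, and it came to 0.11 without the 5 min BiC/4AP array. The dim clone 3 was at 0.57 ± 0.35, with 8.57 to 24.8 units with BiC/4AP and 5.14 to 12.9 with Block.

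**Figure D2:**
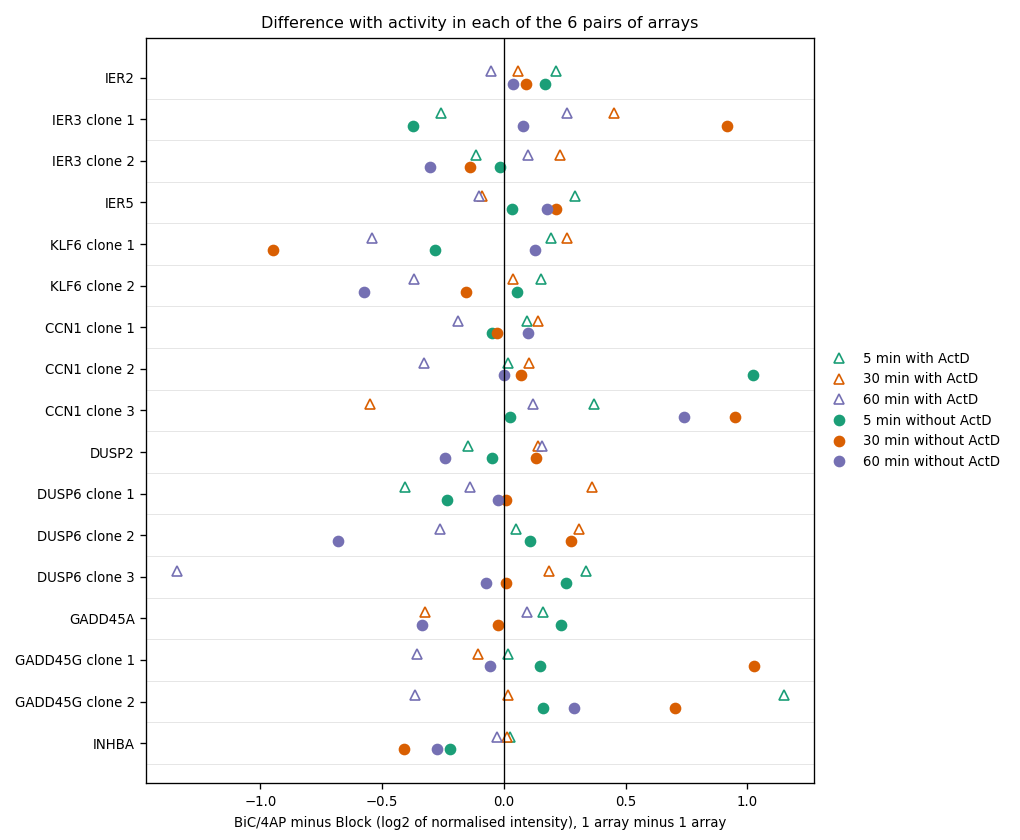
Log2 difference of BiC/4AP minus Block (x axis) in each of the 6 pairs of arrays for the 17 clones (y axis), coloured by time, with open triangles for pairs with ActD and filled circles for pairs without. Most points lie near 0. Among clones that are not dim, a single point with ActD stands out, that of DUSP6 clone 3 at 60 min (-1.34). Without ActD, those of GADD45G clone 1 at 30 min (1.03), CCN1 clone 2 at 5 min (1.02), KLF6 clone 1 at 30 min (-0.95) and IER3 clone 1 at 30 min (0.92) do. The point furthest to the right is that of the dim GADD45G clone 2 at 5 min with ActD. The dim CCN1 clone 3 also stands out to the right, at 30 min without ActD.

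DUSP2 and DUSP6 dephosphorylate MAP kinases, DUSP2 in the nucleus and DUSP6 in the cytoplasm with a preference for ERK. DUSP2 had 27.4, 34.8 and 48.4 units at 5, 30 and 60 min with BiC/4AP + ActD, 30.4, 31.5 and 43.4 with Block + ActD, 28.5, 35.5 and 35.4 with BiC/4AP, and 29.5, 32.4 and 41.9 with Block. The 4 arrays of 5 min were below all others, and the activity differences ran from -0.24 to 0.16. The fitted activity difference was 0.05 ± 0.18 with ActD and -0.05 ± 0.18 without (0.741- to 1.25-fold, limma adjusted p = 0.96). 

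DUSP6 clone 1 was the least variable member, from 49.6 to 74.0 units, and its SD over the 12 arrays (0.155 log2) was at the 4.44th percentile of clones that were not dim. DUSP6 clone 2 ran from 31.5 to 67.3 units, and the 60 min Block array held the 67.3. That array set its 60 min difference without ActD of -0.68, which came to 0.11 when the medians of print block and position were removed. DUSP6 clone 3 had 23.8, 29.6 and 27.2 units at 5, 30 and 60 min with BiC/4AP + ActD, 18.8, 26.1 and 69.1 with Block + ActD, 29.2, 33.5 and 34.5 with BiC/4AP, and 24.5, 33.3 and 36.3 with Block. The 69.1 of the 60 min Block + ActD array had no counterpart on the other 11 arrays. It gave the difference of -1.34 at 60 min with ActD, where DUSP6 clones 1 and 2 were at -0.14 and -0.26. Without ActD the fitted activity differences of the 3 clones were -0.08 ± 0.19, -0.10 ± 0.23 and 0.06 ± 0.28.

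The GADD45 proteins bind stress kinases and cell cycle regulators and take part in DNA demethylation. GADD45A had 70.1, 65.1 and 55.2 units at 5, 30 and 60 min with BiC/4AP + ActD, 62.6, 81.5 and 51.7 with Block + ActD, 69.0, 61.8 and 47.7 with BiC/4AP, and 58.7, 62.9 and 60.2 with Block. BiC/4AP and Block arrays overlapped, and the fitted difference was -0.02 ± 0.18 with ActD and -0.04 ± 0.18 without.

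GADD45G clone 1 had 26.2, 27.4 and 28.6 units at 5, 30 and 60 min with BiC/4AP + ActD, 25.9, 29.6 and 36.6 with Block + ActD, 28.4, 52.4 and 44.7 with BiC/4AP, and 25.6, 25.7 and 46.5 with Block. At 30 min the BiC/4AP array alone was high, and at 60 min both arrays without ActD were above both with ActD. The 30 min difference was -0.11 with ActD and 1.03, a 2.04-fold ratio, without, again in the pair with neuron markers at a median of -0.94. Over the 3 times the difference was -0.15 ± 0.22 with ActD and 0.37 ± 0.22 without (0.934- to 1.79-fold, limma adjusted p = 0.79), and 0.13 without the 30 min BiC/4AP array. The contrast of those values was -0.52 ± 0.31, below 0 at 3 of 3 times (unadjusted p = 0.11, limma adjusted p above 0.99). The dim GADD45G clone 2 was at 0.70 in the 30 min pair without ActD and 0.02 with it, and the clones shared a direction in 4 of 6 pairs.

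INHBA encodes the beta A subunit of activin, a secreted ligand of the TGF-beta family. INHBA had 38.9, 37.9 and 48.4 units at 5, 30 and 60 min with BiC/4AP + ActD, 38.1, 37.5 and 49.4 with Block + ActD, 37.5, 36.5 and 46.5 with BiC/4AP, and 43.7, 48.5 and 56.3 with Block. At each time the Block array was the highest of the 4, and at 5 and 30 min the other 3 arrays lay between 36.5 and 38.9 units. The activity difference was 0.00396 ± 0.16 with ActD and -0.30 ± 0.16 without, below 0 in 3 of 3 pairs without ActD (0.640- to 1.03-fold). It had the smallest unadjusted p of the members in that comparison, 0.078 (limma adjusted p = 0.79).

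**Figure D3:**
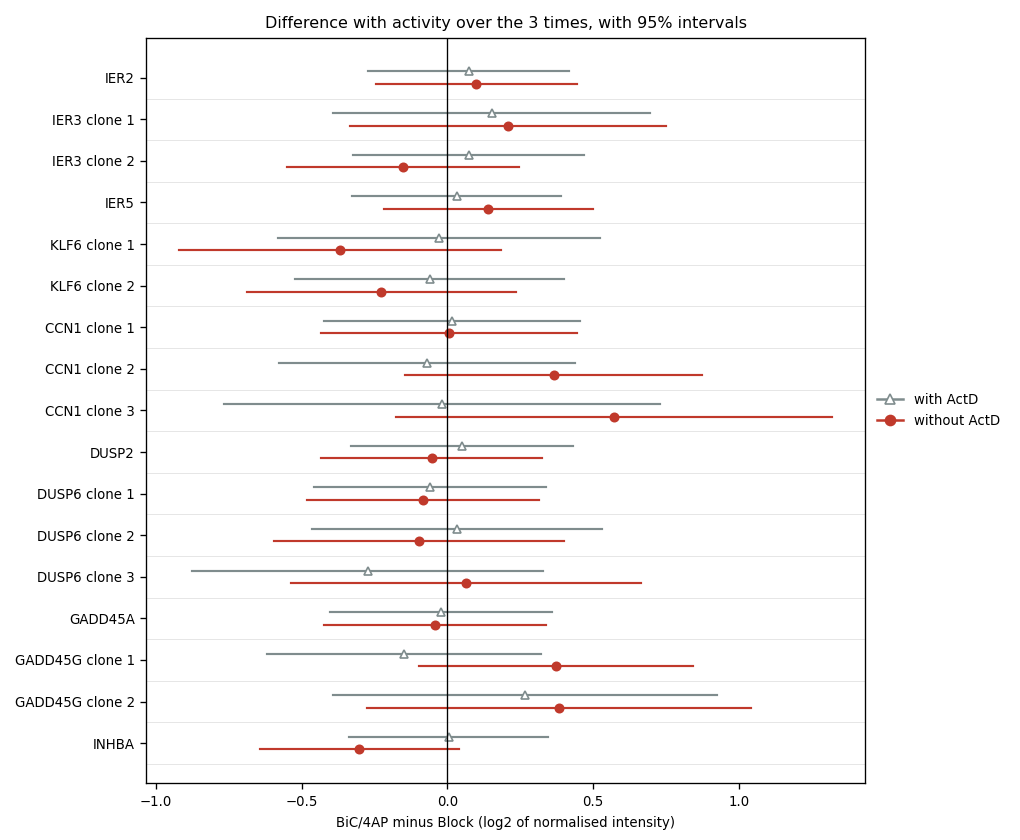
Fitted log2 difference of BiC/4AP minus Block over the 3 times (x axis) for the 17 clones (y axis), with 95% intervals from limma, open triangles with ActD and filled circles without. Every interval includes 0, and INHBA without ActD (-0.30) comes nearest to leaving it.

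The study used a z-fold of 1.4 in size as its limit for a change with activity. The z-fold was computed here as the difference between a pair of arrays divided by its SD over all spots, which is a reading of a method not spelled out in the sources used here. Such a value has no replicate and no test. With ActD, 1 member clone passed at 5 min, 0 at 30 min and 1 at 60 min, where 8.96%, 6.43% and 9.12% of all spots passed. Without ActD, 1 passed at 5 min, 3 at 30 min and 0 at 60 min, where 7.06%, 10.9% and 8.18% of all spots passed. They were GADD45G clone 2 (2.03, dim, 5 min) and DUSP6 clone 3 (-2.54, 60 min) with ActD. Without ActD they were CCN1 clone 2 (1.90, 5 min), GADD45G clone 1 (1.52), CCN1 clone 3 (1.41, dim) and KLF6 clone 1 (-1.404), the last 3 at 30 min. IER3 clone 1 lay just inside the limit at 30 min, with 1.36. KLF6 clone 1 came to -0.75 at 30 min when medians of print block and position were removed, whereas GADD45G clone 1 stayed between 1.52 and 2.27 over the normalizations tried. The study further required the same direction with and without ActD, and 0 member clones met this at any time, where 55 spots met it upward and 60 downward at 5 min, 74 and 43 at 30 min, and 96 and 58 at 60 min. With normexp background correction IER3 clone 1 met it at 30 min, with z-folds of 1.66 with ActD and 1.62 without. Its log2 differences were then 0.30 and 0.52, smaller than the 0.45 and 0.92 of the main setting. In the normexp setting 13.1% of all spots passed the limit at 30 min with ActD and 11.4% without. How many of them met it in the same direction in both pairs was not counted there.

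The members had no direction in common across pairs. With ActD 13, 13 and 5 of 17 clones were above 0 at 5, 30 and 60 min, with medians of 0.10, 0.10 and -0.14, and without ActD 10, 11 and 7, with medians of 0.03, 0.07 and -0.02. Between 47.4% and 50.4% of all clones of 1 symbol were above 0 in these pairs. At 60 min the KLF6 clones disagreed without ActD. KLF6 clone 1 was at -0.54 with ActD and 0.13 without. The value without ActD was 0.19 with quantile normalization, 0.23 with median centring and 0.05 with normexp. KLF6 clone 2 was at -0.37 with ActD and -0.58 without, and it stayed below 0 in both pairs under the 5 other normalizations tried. All 3 DUSP6 clones were below 0 in both 60 min pairs too, but without ActD clones 1 and 3 came to 0.05 and 0.03 with quantile normalization and to 0.08 and 0.02 with median centring. With the medians of print block and position removed clone 2 was at 0.09 with ActD and 0.11 without.

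ActD was then compared with its absence in stimulated and in silenced cultures. At 5 min the ActD arrays had numbers 81 and 82, with raw medians of 27.0 and 24.5. The other 5 min arrays had numbers 83 and 84, with raw medians of 30.2 and 31.8. In the 5 min pairs ActD, array number and raw brightness therefore cannot be told apart. Each array was centred on its own mean, so a loss common to all transcripts would not show. In BiC/4AP cultures CCN1 clone 2 was at -0.63 ± 0.24 with ActD relative to without (unadjusted p = 0.018) and GADD45G clone 1 at -0.57 ± 0.22 (unadjusted p = 0.022), both below 0 at 3 of 3 times. These were the 2 of 17 clones with an unadjusted p under 0.05, where 3.42% of all spots had one, and their limma adjusted p was 0.999. The pairs of CCN1 clone 2 were at -1.03, -0.69 and -0.19 at 5, 30 and 60 min, and those of GADD45G clone 1 at -0.12, -0.93 and -0.65. These values share their BiC/4AP arrays with the activity differences without ActD and are not separate from them. The shared arrays include the high 5 min value of CCN1 clone 2 (52.0) and the high 30 min value of GADD45G clone 1 (52.4). The other clones of these genes were at 0.02 ± 0.21 (the brighter CCN1 clone 1), -0.30 ± 0.35 (the dim CCN1 clone 3) and -0.28 ± 0.31 (the dim GADD45G clone 2) in BiC/4AP cultures. In Block cultures CCN1 clone 2 and GADD45G clone 1 were at -0.20 ± 0.24 and -0.04 ± 0.22. There the smallest unadjusted p among the members was that of INHBA, 0.14, at -0.25 ± 0.16 and below 0 at 3 of 3 times. The INHBA value shares its Block arrays (43.7, 48.5 and 56.3 units) with the activity difference without ActD and is not separate from it. In Block cultures 0 of the 17 clones had an unadjusted p under 0.05, where 2.47% of all spots had one. For the contrast of the activity difference with and without ActD it was 0 of 17 and 2.58% of all spots. None of these comparisons called a spot after adjustment (0%, 0 of 9600). Averaged over the 3 times, IER2, IER5, DUSP2 and GADD45A differed by at most 0.12 between ActD arrays and the others in either culture, although at single times they reached 0.45 (DUSP2, 60 min BiC/4AP), 0.37 (GADD45A, 30 min Block) and -0.25 (IER5, 30 min BiC/4AP). The 95% intervals of those averages reached 0.762-fold downward and 1.42-fold upward.

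Differences between times were called for more spots than differences with activity or ActD. The 60 min arrays were compared with the 5 min arrays, 2 against 2, with activity as a covariate and 5 residual degrees of freedom. With ActD 12 of 17 clones were above 0, with a median of 0.04, and without ActD 8 of 17, with a median of -0.01, where 56.7% and 54.5% of all clones of 1 symbol were. Limma called 11.6% of all spots with ActD, 400 upward and 713 downward, and 5.86% without, 154 upward and 409 downward. Of the members it called 1 clone with ActD and 0 without. At an unadjusted p under 0.05 there were 4 clones upward and 1 downward in each, where 27.7% of all spots passed with ActD and 22.3% without. Time went with array number and with raw brightness, so none of these can be told apart.

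KLF6 clone 1 was the 1 member called, and it rose by 0.90 ± 0.27 at 60 min relative to 5 min with ActD (1.24- to 2.79-fold, limma adjusted p = 0.047), above 0 with BiC/4AP and with Block. KLF6 clone 2 was at -0.43 ± 0.22 in the same comparison, so the call rests on 1 of the clones of the gene. The adjusted p was 0.48 when the medians of print block and position were removed, with a difference of 0.30, and 0.083 with median centring. Of the 12 fits that left out an array, those without the 30 min BiC/4AP (0.0094) or the 30 min Block array (0.0095) kept the call. In the other 10 the adjusted p was 0.0505 or more, and highest when the 60 min Block + ActD array (0.30) or the 5 min Block + ActD array (0.27) was missing. Without ActD KLF6 clone 1 was at -0.01 ± 0.27, and the contrast with ActD was 0.91 ± 0.39 (unadjusted p = 0.034, limma adjusted p = 0.98). It was the 1 member with an unadjusted p under 0.05 in that contrast, where 4.46% of all spots had one and 0% were called.

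Among the feedback phosphatases, DUSP2 was at 0.67 ± 0.21 with ActD (1.16- to 2.17-fold, adjusted p = 0.055 in limma) and 0.41 ± 0.21 without, and DUSP6 clone 3 at 1.04 ± 0.33 (adjusted p = 0.057) and 0.40 ± 0.33. DUSP6 clone 1 was at 0.01 ± 0.22 and 0.06 ± 0.22, and clone 2 at 0.04 ± 0.25 and 0.56 ± 0.25. IER3 clone 1 was at 0.89 ± 0.32 with ActD and 0.85 ± 0.32 without (adjusted p = 0.083 and 0.12), and IER3 clone 2 was at 0.07 ± 0.21 and 0.55 ± 0.21. GADD45G clone 1 was at 0.31 ± 0.28 with ActD and 0.76 ± 0.28 without (adjusted p = 0.13 for the second).

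Below 0 were IER2, at -0.28 ± 0.19 with ActD and -0.54 ± 0.19 without (adjusted p = 0.10 for the second), and IER5, at -0.46 ± 0.20 and -0.41 ± 0.20 (adjusted p = 0.15 and 0.25 in limma). GADD45A was at -0.31 ± 0.21 and -0.25 ± 0.21. CCN1 clones 1, 2 and 3, the last of them dim, were at -0.25 ± 0.19, -0.24 ± 0.28 and -0.82 ± 0.41 without ActD. With ActD they were at 0.03 ± 0.19, 0.26 ± 0.28 and -0.05 ± 0.41. KLF6 clone 2 was at -0.25 ± 0.22 without ActD. The dim GADD45G clone 2 was at 0.01 ± 0.38 with ActD and -0.39 ± 0.38 without. INHBA was at 0.35 ± 0.21 with ActD and 0.34 ± 0.21 without.

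**Figure D4:**
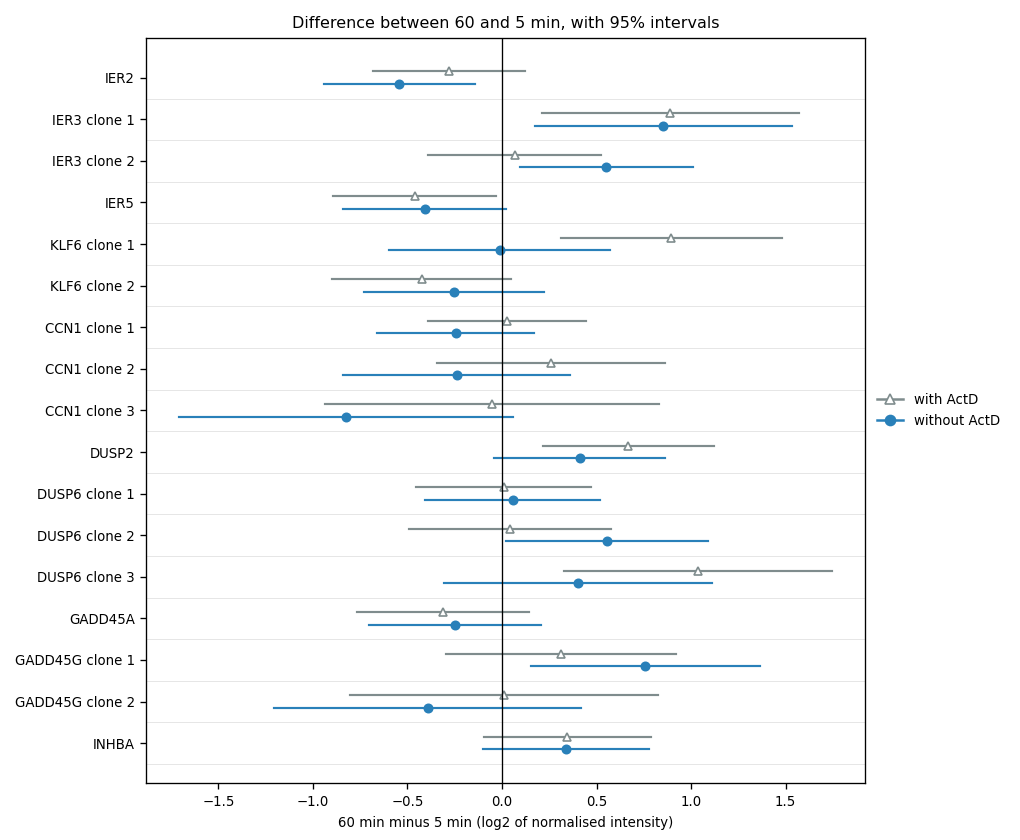
Fitted log2 difference of 60 min minus 5 min (x axis) for the 17 clones (y axis), with 95% intervals from limma, open triangles with ActD and filled circles without. IER3 clone 1 lies to the right of 0 in both settings (0.89 and 0.85), whereas KLF6 clone 1 does so with ActD (0.90) and not without (-0.01).

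Over all 12 arrays 9 of the 15 clones above the lowest 25% of brightness had an SD below the median of such clones, 0.286 log2. IER3 clone 1 was the most variable of the 15, with an SD of 0.478 at the 88.3rd percentile, followed by DUSP6 clone 3 with 0.459, while IER2 had 0.196.

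Other genes of the same pathways were counted from a list of 72 symbols, of which 33 had 43 clones here, 12 of them dim. The list held other MAP kinase phosphatases and feedback inhibitors, MAP kinases, SRF and its partners, KLF and CCN relatives, activin receptors and antagonists, and regulators of AU-rich mRNA decay. For activity 24 of 43 clones were above 0 with ActD (median 0.03) and 25 of 43 without (median 0.06), and 0 were called. ZFP36L1 binds AU-rich elements and directs mRNAs to decay. Its z-fold at 60 min was 3.11 with ActD and 2.65 without, and the dim clone of the phosphatase DUSP14 had -2.01 and -1.56. Among all spots, 96 passed 1.4 upward in both 60 min pairs and 58 downward. At 5 and 30 min ZFP36L1 was at -0.11 and 0.21 with ActD, and at 0.95 and -0.27 without. DUSP14 was at 0.23 and 0.02 with ActD, and at -0.95 and -1.46 without. These z-folds come from single pairs of arrays and were not tested. At 60 min activity cannot be told apart from array number. Over time with ActD limma called 5 of the 43 clones, against 11.6% of all spots. The cell cycle inhibitor CDKN1A was 0.89 higher at 60 than at 5 min (adjusted p = 0.025), whereas ETS2, a transcription factor downstream of MAP kinases, fell by 1.60 (adjusted p = 6.3e-04), CCN3 by 1.01, ZFP36 by 0.95 and MCL1, by a dim clone, by 1.31 (adjusted p = 0.033 or less). Without ActD it called 3, against 5.86% of all spots, namely the regulator of G protein signalling RGS4, which was 1.32 higher, and ETS2 and the ubiquitin ligase SIAH2, which fell by 1.16 and 0.91 (adjusted p = 0.022 or less in limma).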

How the data were processed

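Radiolabelled cDNA of each sample was hybridized to nylon arrays of mammalian cDNA clones. The authors read spot intensity from phosphor screens, and the deposited values are raw intensity on a linear scale, not normalized. The deposited series matrix was 100% identical to them. No value column of another sample was in use (0). The platform table names clones by human symbols, and related genes may cross-hybridize. Of 9600 spots 8496 had 1 symbol, 21 several and 1083 none. Members and lists were chosen with earlier results of these data known.

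On each array the log2 intensity was centred on its mean, divided by its SD and multiplied by the mean SD, 1.75. Adding back the grand mean gives the normalised intensity. A z-fold divides the difference within a pair by its SD over all spots and carries no test. The fits used limma 3.58.1 (lmFit, then eBayes with trend) under R 4.3.3, with two-sided p-values adjusted over 9600 spots by Benjamini-Hochberg at a threshold of 0.05, with time beside the 4 treatments (12 arrays), and in another fit with time by ActD plus activity. The fits were tested on simulated data. The number of arrays limits precision. All member clones are named, and related genes only where they were called or passed a z-fold of 1.4 in the same direction with and without ActD at a time. Alternatives were quantile normalization, median centring, normexp (offset 50), leaving out blank-position, placeholder (743 values of exactly 10, 0 in members) and dim spots, removal of block and position medians, no trend, only the 6 arrays compared, and leaving out each array.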

Additional observations from a re-analysis of the deposited data

Results flagged for a closer look

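For 9 clones the activity difference lay on opposite sides of 0 at a pair of times, both with and without ActD. These differences between times were not tested. Each value here is the mean of the difference with and without ActD at the later time minus that at the earlier time, on the log2 scale. IER3 clone 1 was at 0.999 for 30 minus 5 min and 0.49 for 60 minus 5 min, with the 5 min pairs below 0. KLF6 clone 2 was at -0.58 for 60 minus 5 min. CCN1 clone 2 was at -0.69 for 60 minus 5 min and -0.25 for 60 minus 30 min, and its 60 min difference without ActD was -1.9e-04. DUSP2 was at 0.23 for 30 minus 5 min. DUSP6 clone 1 was at 0.51 for 30 minus 5 min and -0.27 for 60 minus 30 min. DUSP6 clone 2 was at -0.55 for 60 minus 5 min and -0.76 for 60 minus 30 min, and clone 3 at -1.005 and -0.81, so the activity difference of all 3 DUSP6 clones was lower at 60 than at 30 min. The sign at 60 min without ActD turned under at least 1 other normalization for IER3 clone 1, CCN1 clone 2, GADD45G clone 1 and all 3 DUSP6 clones. With quantile normalization CCN1 clone 2 was then at 0.12 and GADD45G clone 1 at 0.03. That of GADD45A turned at 30 min without ActD, from -0.03 to 0.09 with quantile normalization. GADD45A was at -0.37 for 30 minus 5 min and GADD45G clone 1 at -0.29 for 60 minus 5 min. Such opposite pairs made up 14 of the 51 comparisons of times among the member clones (27.5%) and 15.3% of those among all clones of 1 symbol.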

How the results depend on the processing

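The activity differences of the 17 clones, with and without ActD, gave 408 values over the fits that left out an array and 234 over the other alternatives. They passed the threshold in 0 of the 408 and 0 of the 234 (smallest adjusted p 0.48 in limma). Their sign changed in 41 and 16 of these, the largest value that changed sign being 0.27 in size. No pairing of arrays by replicate was possible because each condition has 1 array and the groups share a single replicate number. The activity fits match arrays by time instead. The number of spots called for 60 against 5 min without ActD, 563, came to 848 with quantile normalization, 912 with normexp, 978 without blank, placeholder and dim spots, 338 with block and position medians removed, 247 with no trend, 238 from only the 6 arrays compared, and 69 (without 5 min BiC/4AP) to 1095 (without 30 min Block) with an array left out. With ActD the 1113 came to 1786 with normexp, 615 with block and position medians removed, 699 with no trend, and 258 (without 60 min BiC/4AP + ActD) to 1583 (without 30 min BiC/4AP). Leaving out an array gave 0 to 2 spots for activity without ActD and 0 to 5 for the contrast of the time differences. Spots past a z-fold of 1.4 came to 1178 with normexp and 1009 without dim spots for 5 min without ActD (678), 1274 and 986 for 60 min without (785), 1260 and 1063 for 30 min with (617), and 1012 without dim spots for 60 min with ActD (876). KLF6 clone 1 at 60 against 5 min with ActD ran from 0.66 to 1.13 with an array left out (limma adjusted p 0.0094 to 0.30).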
